A study of Mus musculus with 6 samples.

Results

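Vesicles that move proteins between the endoplasmic reticulum (ER) and the Golgi are built from the COPII coat on the way out and the COPI coat on the way back, and 36 mouse genes of these coats and of the receptors that load cargo into them were described here. They were chosen by symbol, with no measured value in the rule but with earlier results of these data known. All 36 have a row among the 19617 rows of the expression table. The cells were of the Lewis lung carcinoma, a mouse tumour line, and gave 2 groups of 3 libraries. The scrambled shRNA group (genotype given as Urod wildtype) carried a lentiviral hairpin of scrambled sequence, and the Urod shRNA group (Urod knockdown) a hairpin against Urod, an enzyme of heme synthesis. Cells of both groups were kept with doxycycline at 2 ug/mL for 4 days to switch the hairpin on. The labels name neither the hairpin sequences nor how many hairpins or clones were used, so loss of Urod and other effects of the hairpin cannot be told apart. Nor do they say that replicates were separate cultures. All p-values therefore rest on the spread among these 6 libraries, and part of that spread may be technical.

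In the secretory pathway the small GTPase SAR1 starts a COPII bud at an ER exit site, an inner layer of SEC23 and SEC24 picks up cargo, and an outer cage of SEC13 and SEC31 shapes the vesicle. ARF1 recruits the COPI coat, a preassembled complex of alpha, beta, beta prime, gamma, delta, epsilon and zeta subunits, at the Golgi. KDEL receptors and the p24 proteins travel in both kinds of vesicle, and KDEL receptors bring escaped ER chaperones back to the ER.

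Levels are in TPM, in which abundance is divided by transcript length and each library sums to 1000000, so genes can be compared within a library while read depth is unknown. Urod itself measured 95.2, 89.9 and 92.1 TPM with the scrambled hairpin and 5.71, 5.21 and 5.35 TPM with its own, in the direction of the labels. Within a group, libraries had correlations of 0.996 to 0.998 across genes. Library make-up also moved with the groups. The ribosomal RNA precursor Rn45s took 0.114% to 0.150% of TPM in scrambled and 0.353% to 0.411% in Urod shRNA libraries, and 19 ER chaperones and other luminal proteins took 4.21% to 4.41% and 1.29% to 1.34%. Of 10 epithelial markers 9 had a row. Of these 2 reached a mean of 1 TPM, Krt8 and Epcam, and 7 stayed under 1 TPM in every library, with Cldn7 and Scgb1a1 at 0 in some. The summed level of the epithelial list ran from 305 to 332 TPM in scrambled and from 448 to 470.5 TPM in Urod shRNA libraries, with Krt8 up from 315 to 459 TPM on average and Epcam down from 1.96 to 0.943 TPM. Of 12 leukocyte and endothelial markers 11 had a row, and 4 reached a mean of 1 TPM. The summed level of the 11 ran from 109.0 to 109.8 TPM in scrambled and from 52.3 to 53.7 TPM in Urod shRNA libraries. That sum was mostly Lyz2 (49.2 and 11.4 TPM on average) and Cd68 (53.2 and 30.8 TPM). Endothelial markers were mixed, with Pecam1 higher (4.74 and 7.37 TPM), Vwf lower (1.49 and 1.06 TPM) and the scarce Cdh5 higher (0.297 and 1.44 TPM). The part of the cell type markers in the results was not tested. With Rn45s and the small RNA rows removed and libraries rescaled, the calls among the 36 genes numbered 4 higher and 20 lower, as without that step, and with the 19 luminal genes removed 2 higher and 24 lower. Over all genes tested 40% were higher and 36.4% lower after the first removal, and 35.3% and 39.3% after the second.

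Most of the 36 genes moved by small steps, and more fell than rose. In the Urod shRNA libraries 20 of the 36 were lower, 4 were higher and 12 did not pass (limma on log2(TPM + 1), Benjamini-Hochberg adjusted p under 0.05 over 11980 genes). Over all genes tested 74.7% passed, 36.2% as lower and 38.5% as higher, against 55.6% lower and 11.1% higher among the 36. The median log2 change of the 36 was -0.15, against 0.02 for all genes tested, while the median size of change was 0.21 against 0.32. The 3 values of each group did not overlap for 26 of the 36, 22 lower and 4 higher, and for 77.3% of all genes tested, 37.5% lower and 39.8% higher. Falls past 0.5 on the log2 scale occurred for 7 of the 36, namely Copz2, Tmed3, Sec24a, Golga2, Sec22b, Tmed10 and Kdelr3, and rises of that size for 0. Over all genes 16.4% fell and 15.1% rose by that much. In bulk RNA such as this, fewer cells with a transcript and less transcript per cell cannot be told apart.

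**Figure D1:**
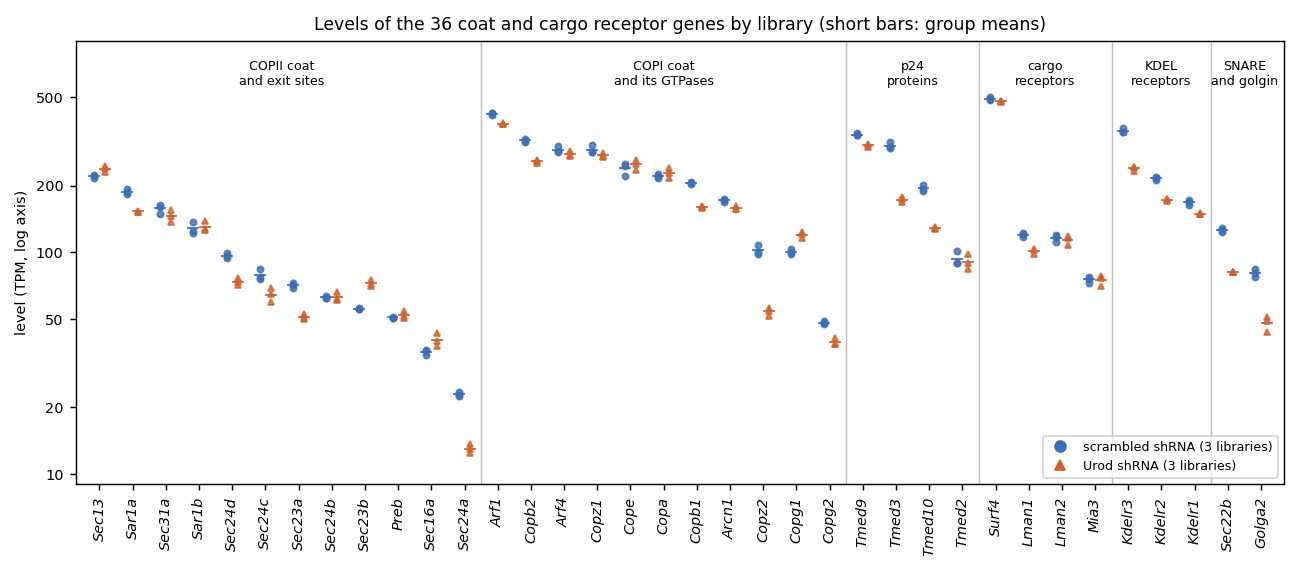
Level of each of the 36 genes in every library (TPM, log axis), ordered by role and by level within a role; circles are the 3 scrambled libraries, triangles the 3 Urod shRNA libraries, short bars the group means. Surf4 was the most abundant at 493 TPM in scrambled libraries and Sec24a the least at 22.9 TPM.

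The 36 genes were abundant and tightly replicated. Means over the 6 libraries lay above 28.4 TPM, the median of all genes tested, for 35 of them, Sec24a being the exception. The SD within a group was 2.73% of the mean in the median gene and at most 8.19%. In scrambled libraries the order of levels was led by Surf4 (493 ± 9.57 TPM), Arf1 (422 ± 4.35), Kdelr3 (354 ± 9.80), Tmed9 (339 ± 3.77) and Copb2 (319.8 ± 5.29), and closed by Preb (50.9 ± 0.302), Copg2 (48.2 ± 0.708), Sec16a (35.6 ± 0.984) and Sec24a (22.9 ± 0.515; SD, n = 3 each). Within that order neighbours such as Arf4 (290.4 ± 10.4) and Copz1 (289.8 ± 12.2) differed by less than their spread.

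**Figure D2:**
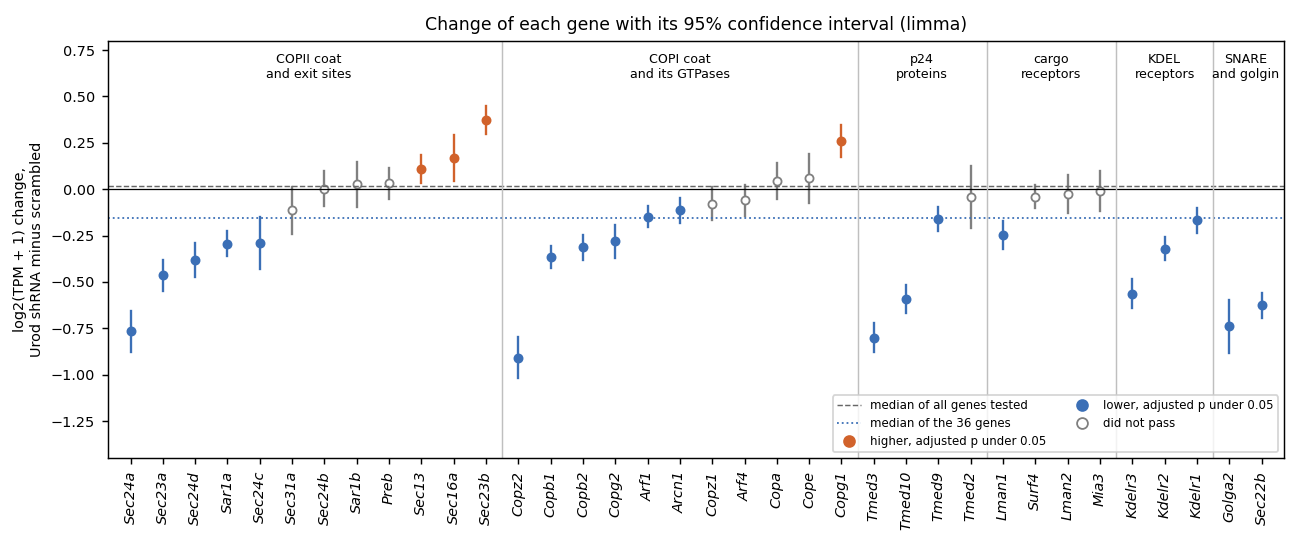
Change of each gene on the log2(TPM + 1) scale, Urod shRNA minus scrambled, with its 95% confidence interval; filled points passed the test, open points did not. The dotted line is the median of the 36 genes (-0.15) and the dashed line that of all 11980 genes tested (0.02).

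A shared promoter element was found in 6 of the genes. The 300 bases around the RefSeq start sites on GRCm38.p6, 250 before and 50 after, were at hand for 32 of the 36 genes, 3 of them with 2 start sites. They were searched on both strands for 4 motifs known from the ER stress response. The ER stress element, CCAAT and CCACG with 9 bases of any kind between them, occurred in 0 of 32, and in 0.137% of all 27025 genes with a promoter. Its second form, ATTGG and CCACG with 1 base between them, also occurred in 0 of 32, against 0.0444%. The unfolded protein response element TGACGTGG, a sequence bound by the stress factors XBP1 and ATF6, occurred in 6 of 32 (18.8%), against 0.714% of all genes and 1.10% of the 8880 tested genes with a promoter. The core CCACG, which overlaps that element on the opposite strand, occurred in 24 of 32 (75%), against 35.5% of all genes and 52.6% of those tested. The 6 genes with TGACGTGG are shown with up to 40 bases on each side, 5′ to 3′ along the gene's strand, with the element in capitals. It reads TGACGTGG where it lies on the gene's strand and CCACGTCA where it lies on the other.
Kdelr3: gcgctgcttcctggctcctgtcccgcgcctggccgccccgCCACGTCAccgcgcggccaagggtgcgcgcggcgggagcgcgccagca
Sec24d: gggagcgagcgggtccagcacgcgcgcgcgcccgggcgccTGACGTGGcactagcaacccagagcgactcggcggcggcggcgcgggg
Copb1: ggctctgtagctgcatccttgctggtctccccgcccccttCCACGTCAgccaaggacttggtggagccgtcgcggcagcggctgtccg
Copb2: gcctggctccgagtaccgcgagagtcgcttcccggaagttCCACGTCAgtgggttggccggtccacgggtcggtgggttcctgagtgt
Sec23a: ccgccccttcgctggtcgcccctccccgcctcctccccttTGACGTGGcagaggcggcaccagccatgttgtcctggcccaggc
Arf1: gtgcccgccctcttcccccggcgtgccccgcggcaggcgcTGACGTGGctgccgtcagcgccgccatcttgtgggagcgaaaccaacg

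These windows are chr15:79516338-79516425 (plus strand) for Kdelr3, chr3:123267430-123267517 (plus) for Sec24d, chr7:114254661-114254748 (minus) for Copb1, chr9:98563684-98563771 (plus) for Copb2, chr12:59011968-59012051 (minus) for Sec23a and chr11:59228199-59228286 (minus) for Arf1. The element began 30 bases before the start site of Kdelr3, 26 before that of Sec24d, 28 before that of Copb1 and 7 before that of Copb2. In Sec23a it began 7 bases into the transcript, and in Arf1 it lay 84 bases before the start site or 22 bases into the transcript, depending on which of 2 start sites is taken. All 6 genes were lower in Urod shRNA libraries, with a median log2 change of -0.37, while of the 26 genes with a promoter and without the element 11 were lower and 4 higher, with a median of -0.07. Across all tested genes the element did not go with a direction. Of 98 such genes 41.8% were lower and 38.8% higher, with a median of 0.00048. Of 17 tested genes with the ER stress element, which none of the 32 has in this window, 82.4% were lower, with a median of -0.70. Of 8 with its second form 50% were lower and 37.5% higher, with a median of -0.17, and of 4673 with the core 37.1% were lower and 38.2% higher. A match is a run of letters and says nothing on binding.

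Among COPII genes the paralogues parted. Sec24a, which encodes 1 of the cargo-binding SEC24 adaptors, stood at 23.4, 22.8 and 22.4 TPM in scrambled and at 12.5, 13.7 and 13.0 TPM in Urod shRNA libraries. The groups lay far apart, and the log2 change was -0.77 (SE 0.05, limma, adjusted p = 4.74e-06), to 57.0% of the scrambled level. Sec24a lies on chromosome 11 from 51692264 to 51763634 (GENCODE M21 on GRCm38). Sec24d (-0.38, limma, adjusted p = 6.79e-05), which carries the promoter element shown above and was the most abundant SEC24 gene, fell from 96.6 ± 2.91 to 73.9 ± 2.91 TPM (SD, n = 3 each). Sec24c (-0.29) fell as well, whereas Sec24b stood at 62.9 ± 0.602 and 63.0 ± 3.09 TPM (SD, n = 3 each), with a 95% interval of the log2 change from -0.09 to 0.10.

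The SEC23 pair, the inner coat proteins that make SAR1 hydrolyse GTP, moved in opposite directions. Sec23a stood at 69.0, 72.8 and 71.6 TPM in scrambled and at 50.1, 52.6 and 51.2 TPM in Urod shRNA libraries. Sec23b stood at 55.6, 55.9 and 55.7 TPM in scrambled and at 70.5, 74.8 and 72.4 TPM in Urod shRNA libraries, so the order of the pair was inverted in all 3 libraries. The log2 changes were -0.46 (SE 0.04, limma, adjusted p = 1.28e-05) for Sec23a and 0.37 (SE 0.03, adjusted p = 2.55e-05) for Sec23b. Sec23a lies on chromosome 12 from 58958383 to 59012017 and Sec23b on chromosome 2 from 144556229 to 144590749. Of Sec23a's exon bases 8.91% face an annotated transcript on the opposite strand, and although the library kit keeps strand, the sources used here do not state whether counting used it.

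The starting GTPase and the outer cage showed smaller differences. Sar1a fell from 188 ± 5.02 to 153 ± 0.914 TPM (log2 change -0.29; SD, n = 3 each), while Sar1b stood at 128 ± 7.35 and 130.4 ± 6.61 TPM. Preb, which encodes the exchange factor SEC12 that loads SAR1 with GTP, stood at 50.9 ± 0.302 and 52.1 ± 1.83 TPM (SD, n = 3 each; 95% interval -0.05 to 0.11). Of Preb's exon bases 21.8% face Abhd1 on the opposite strand. Sec16a, the scaffold of exit sites, rose from 35.6 ± 0.984 to 40.2 ± 2.75 TPM (log2 change 0.17, limma, adjusted p = 0.0224). Sec13, a cage protein that is also part of the nuclear pore, rose from 220.4 ± 3.25 to 238 ± 7.18 TPM (log2 change 0.11, limma, adjusted p = 0.0143). Both calls are near the threshold. Sec16a's was lost without scrambled replicate 1 (limma, adjusted p = 0.0535), scrambled replicate 2 (0.0514), Urod shRNA replicate 2 (0.0563) or Urod shRNA replicate 3 (0.0530), and Sec13's without scrambled replicate 3 (0.0519), Urod shRNA replicate 2 (0.0526) or Urod shRNA replicate 3 (0.0557). With quantile normalization Sec13's log2 change was 0.04 (limma, adjusted p = 0.295). The other cage gene, Sec31a, stood at 158 ± 7.26 and 146 ± 9.17 TPM (SD, n = 3 each; log2 change -0.11, limma, adjusted p = 0.0875), and it passed as lower without scrambled replicate 1 (adjusted p = 0.0308) or Urod shRNA replicate 2 (0.0291).

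In the COPI coat Copz2 fell furthest of all 36 genes. It encodes the second form of the zeta subunit and stood at 108, 100.4 and 98.7 TPM in scrambled and at 56.2, 54.3 and 51.9 TPM in Urod shRNA libraries. The groups lay far apart, and the log2 change was -0.91 (SE 0.05, limma, adjusted p = 1.95e-06), to 52.8% of the scrambled level. Copz2 lies on chromosome 11 from 96849870 to 96861203. The common zeta gene Copz1 stood at 289.8 ± 12.2 and 275 ± 5.84 TPM (SD, n = 3 each; log2 change -0.08, limma, adjusted p = 0.0924). Its groups did not overlap, by a narrow margin, and it did not pass.

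The gamma pair split in direction, as the SEC23 pair did. Copg1 stood at 97.8, 103 and 99.9 TPM in scrambled and at 116, 124 and 121 TPM in Urod shRNA libraries (log2 change 0.26, SE 0.04, limma, adjusted p = 0.000344). Copg2 stood at 47.7, 49.0 and 48.1 TPM in scrambled and at 38.6, 41.2 and 38.8 TPM in Urod shRNA libraries (log2 change -0.28, SE 0.04, adjusted p = 0.000275). Neither pair of groups overlapped. Of Copg2's exon bases 17.8% face Mest on the opposite strand, and 8.55% of Copg1's face Gm26636; the part of these neighbours was not tested.

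Of the single-copy subunits, the beta genes fell and the rest moved little. Copb1 (beta) stood at 208, 206 and 204 TPM in scrambled and at 161, 158 and 159.6 TPM in Urod shRNA libraries (log2 change -0.36, SE 0.03, limma, adjusted p = 7.97e-06). Copb2 (beta prime) stood at 326, 318 and 316 TPM in scrambled and at 262, 252 and 258 TPM in Urod shRNA libraries (log2 change -0.31, SE 0.03, adjusted p = 3.04e-05). Both carry the promoter element shown above. Arcn1 (delta) fell by 0.11, and Copa (alpha) and Cope (epsilon) did not pass, with 95% intervals of the log2 change from -0.05 to 0.14 and from -0.07 to 0.19. Of Copa's exon bases 9.58% face Gm37756 and Ncstn on the opposite strand. Arf1, the GTPase that brings the coat to the membrane, fell from 422 ± 4.35 to 381 ± 3.48 TPM (log2 change -0.15, limma, adjusted p = 0.0010; SD, n = 3 each), and its relative Arf4 stood at 290.4 ± 10.4 and 278 ± 8.05 TPM (95% interval -0.15 to 0.02). For Arf1 10.1% of the possible 51-base reads also match transcripts of other genes, and for Arf4 17.7% of exon bases face genes on the opposite strand.

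Among the p24 proteins, cargo adaptors of both coats that form mixed complexes with each other, Tmed3 and Tmed10 fell most. Tmed3 stood at 313, 298 and 296 TPM in scrambled and at 173, 169 and 177 TPM in Urod shRNA libraries. With a log2 change of -0.80 (SE 0.03, limma, adjusted p = 7.28e-07) it had the smallest p of the 36 genes. Tmed10 stood at 201, 189 and 193 TPM in scrambled and at 130.1, 129 and 127 TPM in Urod shRNA libraries (log2 change -0.59, SE 0.03, adjusted p = 2.42e-06). The groups stood well apart for both, and for Tmed10 8.33% of possible reads are shared with other genes, the most with its pseudogene Tmed10-ps. Tmed9 fell from 339 ± 3.77 to 304 ± 5.87 TPM (log2 change -0.16; SD, n = 3 each). Tmed2 overlapped between groups at 102, 89.3 and 89.7 TPM in scrambled and 98.8, 84.0 and 89.9 TPM in Urod shRNA libraries, and 21.9% of its possible reads match other genes, the most Gm10698. Tmed3 lies on chromosome 9 from 89699206 to 89705068 and Tmed10 on chromosome 12 from 85340614 to 85374847.

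Of the transmembrane cargo receptors only Lman1 passed. Lman1 encodes ERGIC-53, a mannose-binding lectin that in humans carries coagulation factors, and it stood at 117, 122 and 121 TPM in scrambled and at 98.3, 102 and 103 TPM in Urod shRNA libraries (log2 change -0.24, SE 0.03, limma, adjusted p = 0.000257). The lectin gene Lman2 stood at 116 ± 4.26 and 114 ± 5.28 TPM, and Mia3, whose product TANGO1 helps bulky cargo such as procollagen out of the ER, at 75.5 ± 2.37 and 75.0 ± 4.09 TPM (SD, n = 3 each). Their 95% intervals of the log2 change ran from -0.13 to 0.08 and from -0.12 to 0.10. Surf4, a receptor for many soluble cargo proteins, stood at 503, 492 and 484 TPM in scrambled and at 476, 480.4 and 483 TPM in Urod shRNA libraries. Its groups just failed to meet, and the log2 change of -0.04 did not pass (limma, adjusted p = 0.209; 95% interval -0.10 to 0.02). It passed as lower with quantile normalization (-0.12, adjusted p = 0.00283) and with the luminal genes removed (-0.08, adjusted p = 0.0244).

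All 3 KDEL receptor genes fell, in the order of their abundance. Kdelr3, the most abundant, stood at 366, 349 and 348 TPM in scrambled and at 242, 244 and 232.5 TPM in Urod shRNA libraries (log2 change -0.56, SE 0.03, limma, adjusted p = 3.40e-06). Kdelr2 stood at 218, 217 and 213 TPM and at 173, 170.3 and 174 TPM (log2 change -0.32, SE 0.03, adjusted p = 1.85e-05). Kdelr1, the least abundant, stood at 172, 169 and 164 TPM and at 151, 149 and 149 TPM (log2 change -0.17, SE 0.03, adjusted p = 0.00107). The groups were apart for each of the 3, and the 95% intervals of Kdelr3 (-0.64 to -0.49), Kdelr2 (-0.38 to -0.26) and Kdelr1 (-0.24 to -0.10) did not meet. Kdelr3 lies on chromosome 15 from 79516411 to 79527739.

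In a list of ER luminal genes, mostly for proteins of the kind that these receptors retrieve, most transcripts fell as well. Of 19 listed ER luminal genes, all but Ppib of the kind that ends in a KDEL-like tail, 18 were lower and 1 higher (Cnpy2), with a median log2 change of -1.07. That is 94.7% lower, against 36.2% over all genes tested. The change was below that of Kdelr3 for 11 of the 19 and not for the other 8. Hspa5 (-2.42), the main ER chaperone, Pdia4 (-2.11), Sdf2l1 (-1.74) and Pdia6 (-1.63) had the smallest p. The summed level of the 18 genes other than Ppib went from 41959 ± 1072 to 12483 ± 244 TPM and that of the 3 receptors from 738 ± 15.8 to 562 ± 5.49 TPM (SD, n = 3 each). The first sum divided by the second was 57.2, 56.4 and 56.9 in scrambled and 22.5, 21.9 and 22.3 in Urod shRNA libraries, fully apart. Hspa5 alone made up 42.7% to 43.0% of the first sum in scrambled and 26.7% to 27.3% in Urod shRNA libraries. Without it the quotient was 32.6, 32.4 and 32.4 against 16.4, 16.0 and 16.3.

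Sec22b and Golga2, which act when vesicles reach the membrane, fell as well. Sec22b encodes a SNARE, a fusion protein that pairs with partners on the target membrane, and stood at 129, 126 and 123 TPM in scrambled and at 81.4 TPM in all 3 Urod shRNA libraries (log2 change -0.63, SE 0.03, limma, adjusted p = 1.02e-06). Golga2 encodes GM130, a tether of the cis-Golgi, and stood at 77.4, 84.3 and 80.4 TPM in scrambled and at 43.8, 51.4 and 48.9 TPM in Urod shRNA libraries (log2 change -0.74, SE 0.06, adjusted p = 2.05e-05). The groups lay far apart for both. Sec22b lies on chromosome 3 from 97901190 to 97923276 and Golga2 on chromosome 2 from 32287384 to 32307921.

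Because TPM is per length, the share of each paralogue within its family can be read directly, and it does not depend on how libraries are scaled. Across 8 families 13 shares were compared, and the groups did not overlap for 12. No such count was made for other families, and for single genes the groups did not overlap in 77.3% of all tested. Shares within a family sum to the whole, so they are not independent of each other. Each of the 12 gave p = 0.10 in an exact two-sided permutation test, the smallest that 3 against 3 allows, and 0.108 after adjustment over the 13. Sec23a's share of the SEC23 pair showed the largest difference, from 56.1% ± 0.618 to 41.4% ± 0.111 (SD, n = 3 each). Copz1 went from 73.9% ± 0.216 to 83.5% ± 0.320 of the zeta pair, and Copg1 from 67.5% ± 0.268 to 75.3% ± 0.373 of the gamma pair. Sar1a went from 59.5% ± 0.912 to 54.0% ± 1.10 of the SAR1 pair.

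The larger families also shifted. Among the SEC24 genes Sec24b gained, from 24.1% ± 0.461 to 29.4% ± 0.489, while Sec24a went from 8.76% ± 0.363 to 6.09% ± 0.0202 and Sec24d from 37.0% ± 0.214 to 34.5% ± 0.420. Sec24c held 30.2% ± 0.731 and 30.1% ± 0.632, and its groups overlapped (exact permutation test, two-sided, p = 0.90; SD, n = 3 each). Kdelr3 went from 48.0% ± 0.415 to 42.6% ± 0.729 of the KDEL receptors, with Kdelr1 up from 22.8% ± 0.178 to 26.6% ± 0.163. Lman1 went from 50.9% ± 0.427 to 47.0% ± 0.583 of the lectin pair, and Arf1 from 59.3% ± 0.720 to 57.8% ± 0.861 of the Arf1 and Arf4 pair. Neither of these pairs is a whole family. Left out were Arf2, Arf3, Arf5 and Arf6 (127, 122, 168 and 460 TPM on average in scrambled libraries) and Lman2l (24.3 TPM).

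**Figure D3:**
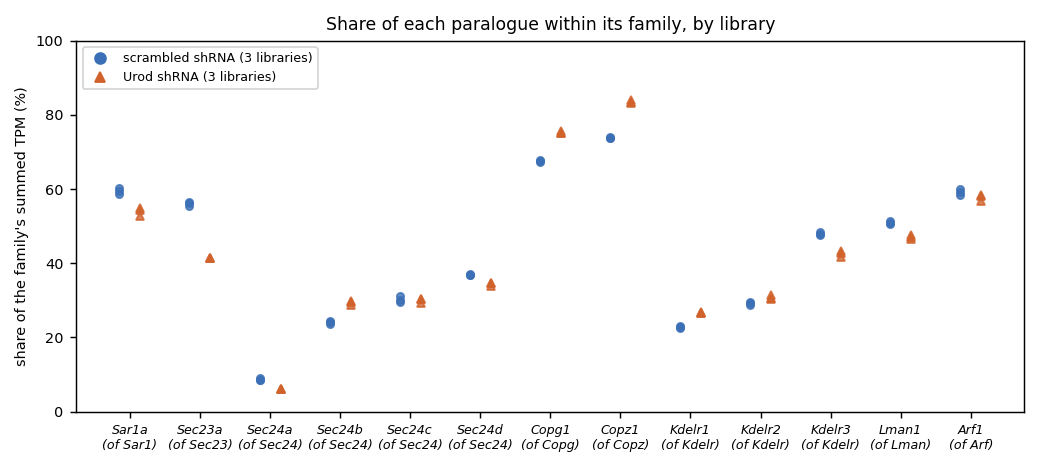
Share of each paralogue in the summed TPM of its family (percent), with circles for the 3 scrambled and triangles for the 3 Urod shRNA libraries. In families of 2 genes the other gene holds the rest. Sec23a goes from 56.1% to 41.4% and Copz1 from 73.9% to 83.5% on average, and only Sec24c overlaps between groups.

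Summing paralogues gives the level at each position of a coat. The SEC23 position held 127 ± 2.04 and 124 ± 3.43 TPM, with Sec23a lower and Sec23b higher, and its groups overlapped (exact permutation test, two-sided, p = 0.30). The SEC24 position stood at 261 ± 7.51 and 214 ± 10.9 TPM, the SAR1 position at 316 ± 11.9 and 283 ± 7.52 TPM and the zeta position at 392 ± 17.4 and 329 ± 7.87 TPM. The gamma position went the other way, from 149 ± 3.39 to 159.8 ± 5.27 TPM. For these 4 the groups did not overlap (exact permutation test, two-sided, p = 0.10 each, 0.131 after adjustment over 21 sums and ratios; SD, n = 3 each). All COPI coat genes together stood at 1699 ± 7.51 and 1542 ± 21.1 TPM and all COPII coat genes at 1082 ± 7.05 and 1005 ± 23.8 TPM. The ratio of the highest to the lowest COPI position was 2.83, 2.52 and 2.58 in scrambled and 2.18, 2.06 and 2.05 in Urod shRNA libraries (exact permutation test, two-sided, p = 0.10, adjusted 0.131). The highest was zeta in every library. The lowest was gamma in each scrambled library, but gamma (154.6 TPM), beta (158.4) and delta (157.4) in Urod shRNA libraries 1, 2 and 3, so the ratio does not always compare the same positions. The same ratio for COPII was 2.64, 2.40 and 2.43 against 2.42, 2.18 and 2.27, and its groups overlapped (exact permutation test, two-sided, p = 0.20).

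**Figure D4:**
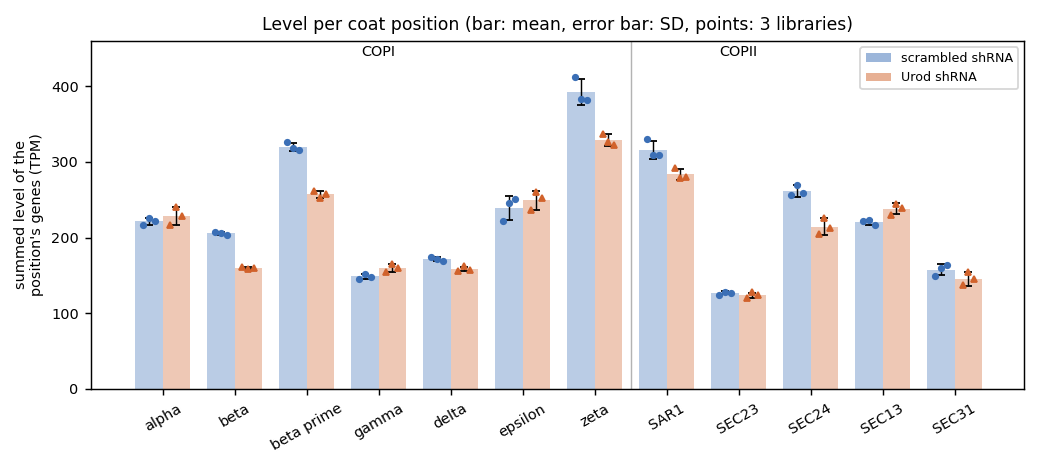
Summed level of the genes at each position of the COPI and COPII coats (TPM), as bars for the group mean with SD and points for the 3 libraries of each group. The zeta position leads COPI at 392 and 329 TPM, and gamma is the lowest COPI position in scrambled libraries at 149 TPM.

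Other genes of ER to Golgi transport, in lists of their own, moved in both directions. Of 96 tested genes in 5 lists, 38 were higher and 38 lower, with a median log2 change of -0.0026, against 4 higher and 20 lower with a median of -0.15 for the 36. That was 39.6% each way, near the 38.5% higher and 36.2% lower over all genes tested. The balance moved with the scaling, to 31 higher and 43 lower with the 19 luminal genes removed and to 33 higher and 42 lower with quantile normalization. Over all genes tested 35.3% were higher and 39.3% lower in the first case, and 40% and 36.2% in the second. Of 7 further exit site genes 4 rose (57.1%) and 3 fell (42.9%). Among them were Sec16b (-0.90), a relative of Sec16a, and Tmem115 (0.71), Pdcd6 (0.37) and Cul3 (0.22). Of 19 other p24 proteins and adaptors 6 rose (31.6%) and 8 fell (42.1%), with Ergic3 (-0.47), Ergic1 (-0.49), Yif1a (-0.39) and Tmed8 (-0.52) having the smallest p. Of 11 ARF GTPases and regulators 3 rose (27.3%) and 7 fell (63.6%). Arfgap3 (-1.05) and Arfgap2 (0.68), both activators of ARF1's GTP hydrolysis on COPI vesicles, moved in opposite directions, and Arf2 (-0.39) and Arf3 (-0.56) fell.

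Fusion and tethering genes were also split, near the shares over all genes tested (38.5% higher and 36.2% lower). Higher and lower were 44.4% and 33.3% of the SNAREs and partners, and 41.5% and 34.1% of the tethers and RAB GTPases. Of 18 SNAREs and partners 8 rose and 6 fell, with Napa (0.45), which helps take used SNARE complexes apart, Scfd1 (0.49), which binds the syntaxin of the ER to Golgi step, and Vti1b (0.44) up and the SNARE Bet1l (-0.44) down. Of 41 tethers and RAB GTPases 17 rose and 14 fell. Members of the same tethering complex were split. Of the COG subunits Cog1 (0.85) and Cog8 (0.73) rose, and Cog5 and Cog7 did not pass. Lower were Cog2 (-0.62), Cog3 (-0.60), Cog4 (-0.08) and Cog6 (-0.49). Of the listed TRAPP subunits Trappc1 (-0.48), Trappc2 (-0.17), Trappc6a (-0.30) and Trappc9 (-0.65) fell. Trappc10 did not pass, and the rest rose, among them Trappc2l (0.64). Clathrin and its adaptors, the coats of later steps, had 12 of 29 higher (41.4%) and 7 lower (24.1%) with a median of 0.10. Ap1s2 (-1.22) fell, and Ap1s1 (0.52), Ap3d1 (0.86) and Ap2m1 (0.46) rose. Whether the 36 genes differ from these lists was not tested.

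**Figure D5:**
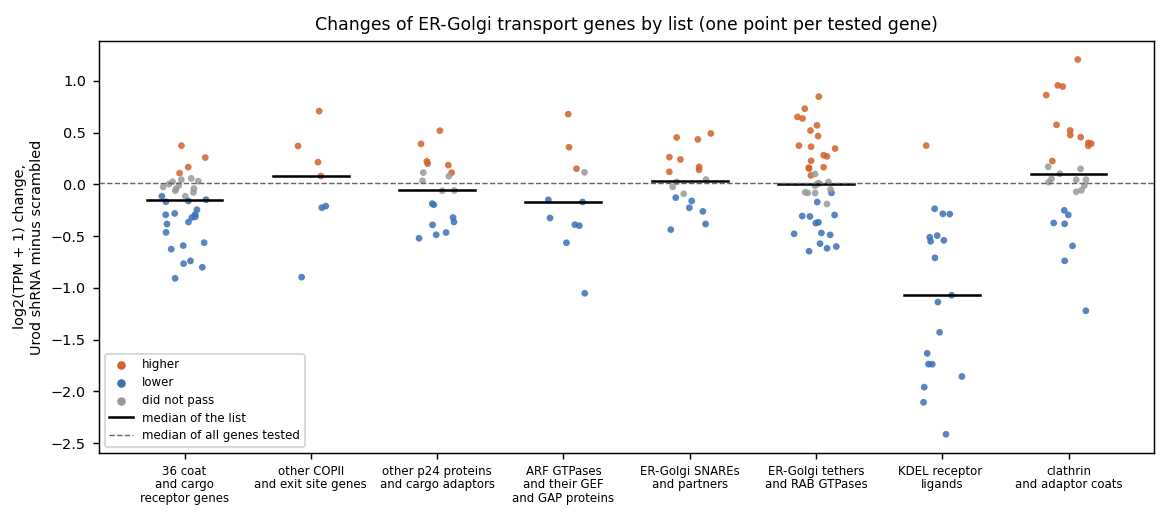
Log2(TPM + 1) change of every tested gene in the 36 and in 7 other lists, coloured by call, with a bar at each list's median and a dashed line at the median of all genes tested (0.02). The 36 genes span -0.91 to 0.37 with a median of -0.15, and the KDEL receptor ligands, Ppib included, have a median of -1.07.

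In the authors' deposited table of this comparison 24 of the 36 genes have an FDR under 0.05, 4 upward and 20 downward, and these are the 24 called here. Turned back from its log2 CPM scale, the authors' deposited table places the 36 between 31.9 CPM (Copz2) and 615 CPM (Surf4). By exact match of symbol, letter case included, 0 of the 36 were found among the 451 rows of the authors' deposited pathway list. The authors' comparison rests on these 6 libraries too, so it adds no independent measurement.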

How the data were processed

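RNA was measured in 6 libraries, grouped by their titles. Per the labels' protocols, polyadenylated RNA was sequenced as 51-base single-end reads, mapped to mm10 with TopHat, filtered for mapping quality and quantified with Cufflinks and Cuffdiff (2.1.1 per the submitters' processing notes). Each library's column in the table deposited by the authors sums to 1000000, so its values were read as TPM although its name speaks of normalized counts. Per the file headers, the comparison deposited by the authors lists FDR and p-values, a score headed LR, log2 CPM and log2 fold changes. Which test made it is not stated in the labels' protocols beyond Cuffdiff.

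Of 19617 rows 27 carry a date for a name and were left out. Genes averaging 1 TPM or more, 11980 in all, were fitted as log2(TPM + 1), which understates changes of low genes, with limma 3.58.1 in R 4.3.3 (variance trend, two-sided, Benjamini-Hochberg). The procedure was tested on simulated data. TPM keep no counts, so no counting error can be given. Shares and sums were compared with exact permutation tests (scipy 1.17.1), and figures drawn with matplotlib 3.10.9. Coordinates are from GENCODE M21 on GRCm38, the assembly of mm10, and promoters from RefSeq. Shared reads were counted as exact 51-base matches between annotated transcripts.

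The genes, lists and motifs were chosen with earlier results of these data known. Each of the 36 genes is accounted for, and from each other list up to 4 called genes with the smallest adjusted p are named. Cnpy2, further COG and TRAPP subunits, Arf5, Arf6 and Lman2l were added after their values were seen. The split of tested genes by promoter element and the sums without Ppib or Hspa5 were also added after the data were seen. Alternatives changed the pseudocount, the filter, the scaling, the variance trend or the promoter window, added a block for replicate number, or left out 1 library.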

Additional observations from a re-analysis of the deposited data

How the results depend on the processing

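Of 612 refits of single genes, 36 genes under 17 settings, 570 kept direction and call, 10 lost a call, 13 gained a call and 19 turned in sign. The 19 turns were in 8 genes, none of them called, and 0 passed the test. With quantile normalization they were Sar1b (-0.044), Sec24b (-0.030), Copa (-0.023) and Cope (-0.0048), with the 19 ER luminal genes removed Sec24b (-0.041), Sar1b (-0.018) and Preb (-0.012), and for Mia3 trimmed-mean scaling (0.0018) and removal of Rn45s and small RNA rows (0.00030). Over refits that each left out 1 library Sar1b ran from -0.015 to 0.072, Sec24b from -0.036 to 0.026, Mia3 from -0.041 to 0.034, Lman2 from -0.054 to 0.014 and Tmed2 from -0.10 to 0.018. Called in every setting were 22 of the 24 called genes, the others being Sec13 and Sec16a. With the 19 ER luminal genes removed and libraries rescaled, 2 genes were higher in place of 4, Sec13 (limma, adjusted p = 0.0970) and Sec16a (0.0656) not passing, and the median change was -0.20. Over all genes tested 35.3% were then higher and 39.3% lower, with a median of -0.02. With quantile normalization the median of the 36 was -0.24, 3 genes were higher and 24 lower, against 40% higher and 36.2% lower over all genes tested. Refits that each left out 1 library gave 2 to 4 higher and 20 to 21 lower genes, with 35.4% to 38.4% higher and 33% to 36.5% lower over all genes tested. No scaling moved the median of all genes tested by over 0.1. With only genes of at least 10 TPM, 41.6% of genes were higher and 35.6% lower.

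Replicate numbers were not treated as pairs. Deviations of same-numbered libraries correlated across genes with r of 0.418, 0.214 and 0.0951, and scrambled library 3 correlated better with Urod shRNA library 2 (0.203). With the replicate block 4 genes were higher and 23 lower, Arf4, Copz1 and Sec31a passing. Over all genes tested 42.7% were higher and 39.8% lower with the block, against 38.5% and 36.2% without it. With the promoter window cut to 250 bases before the start, TGACGTGG was found in 4 of 32 genes. Absolute depth is unknown, and intervals of genes that did not pass reach -0.24 and 0.19.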
